A study of Mus musculus with 10 samples.

Results

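The genes described here encode proteins of the neuronal cytoskeleton: doublecortin (Dcx), the stathmins Stmn2, Stmn3 and Stmn4, the neuronal β-tubulin Tubb3, the microtubule-associated proteins Map2 and Mapt, the growth cone protein Gap43, and the neurofilament subunits Nefl and Nefm. They were chosen by name, as 10 genes of 18069 with a symbol on the arrays, and every probe annotated to 1 of them and to no other gene was read. By this rule 9 of the 10 genes had a probe of their own, with 13 probes in all among 34967: 2 each for Dcx, Stmn3, Tubb3 and Map2, and 1 each for the other 5 genes. The probe for Gap43 is annotated to Diras1 as well, so no value is given for Gap43. A further probe each of Tubb3 and Nefm is shared with another gene (Tubb4b and A230070E04Rik) and was also left out.

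Neurons build long processes on a scaffold of microtubules and neurofilaments. Doublecortin, Map2 and tau (the product of Mapt) bind and stabilise microtubules, stathmins bind free tubulin dimers and favour disassembly, and the neurofilament chains Nefl and Nefm assemble with each other into filaments that set the calibre of axons. Endocrine cells of the pancreas are known to share part of the gene programme of neurons, and Ngn3 is a basic helix-loop-helix factor related to the factors that start neurogenesis.

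Total RNA was measured on 10 one-colour CodeLink Mouse Whole Genome arrays in 5 groups of 2. Both EB groups were embryoid bodies on day 13, grown from Ainv18 mouse ES cells that carry a Dox-inducible Pdx1-IRES-Ngn3 cassette at a single targeted locus, after activin A, BMP4 and bFGF. Dox(−) EBs received no Dox, and Dox(+) EBs received 1 µg/ml Dox from day 4. Further entries of the labels of all 4 EB arrays name activated Notch4 as the induced gene instead, so the labels do not agree on the cassette. The references were the βTC6 insulinoma cell line, whole islets and whole pancreas of E15.5 embryos. The labels give no age for the islets, which the study's text calls adult and its supplementary gene list heads as E15.5. The labels number the arrays of a group as biological replicates without saying which cultures or animals they came from, so the p values measure the spread between these arrays only, which may be technical.

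Levels are background-subtracted intensities divided by the median of the array, so that 1 is the level of the median probe. A level under 0.27 was set to this floor for every difference, and all spots of the 13 probes under it were marked by CodeLink as at background. Where both arrays of a group sat on the floor their spread was 0, so the standard errors (SE) of such differences are too small. From 23070 to 25993 probes per array were above background, the arrays of a group correlated at 0.989 to 0.996, and the median net signal was only 1.66 to 2.63 times the local background. Labelled tissues held their markers: the summed level of 12 endocrine genes was 1616 to 1837 in islets, 1392 to 1398 in βTC6 cells and 191 to 199 in pancreas. Islets also read 1342 to 1532 over 5 acinar genes, against 710.1 to 748 in pancreas. A level in islets is therefore not that of endocrine cells alone. Slide numbers fall into 3 ranges, 1 with βTC6 cells and islets, 1 with pancreas and 1 with both EB groups. Dox(+) and Dox(−) EBs were therefore compared within a range, whereas slide range and tissue cannot be told apart when EBs are set against a reference.

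Dox raised the neuronal cytoskeleton genes, most of them from background to levels above the median probe of the array, while Map2 and Mapt stayed under it. All 9 measured genes were higher in Dox(+) than in Dox(−) EBs at 1 probe or more, and none was lower by limma, also at an unadjusted p under 0.05. Of the 13 probes 12 passed the limma test upwards, and the other, 1 of the 2 Map2 probes, did not pass. Over all 28193 probes tested in this comparison 20.7% were called higher and 22.5% lower. The median log2 difference was 5.38 over the 13 probes and -0.03 over all probes tested. In bulk samples like these, fewer cells of a type and less RNA per cell cannot be told apart. Dcx, Stmn2, Stmn3, Stmn4 and Tubb3 are in a gene list that the study drew from these same arrays, so their rise is not independent evidence. The same holds for other genes of that list that are named below, among them Dclk1 (as Dcamkl1), Sncg, Elavl4, Cartpt (as Cart), Caly (as Drd1ip), Pld5 and Astn1.

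**Figure D1:**
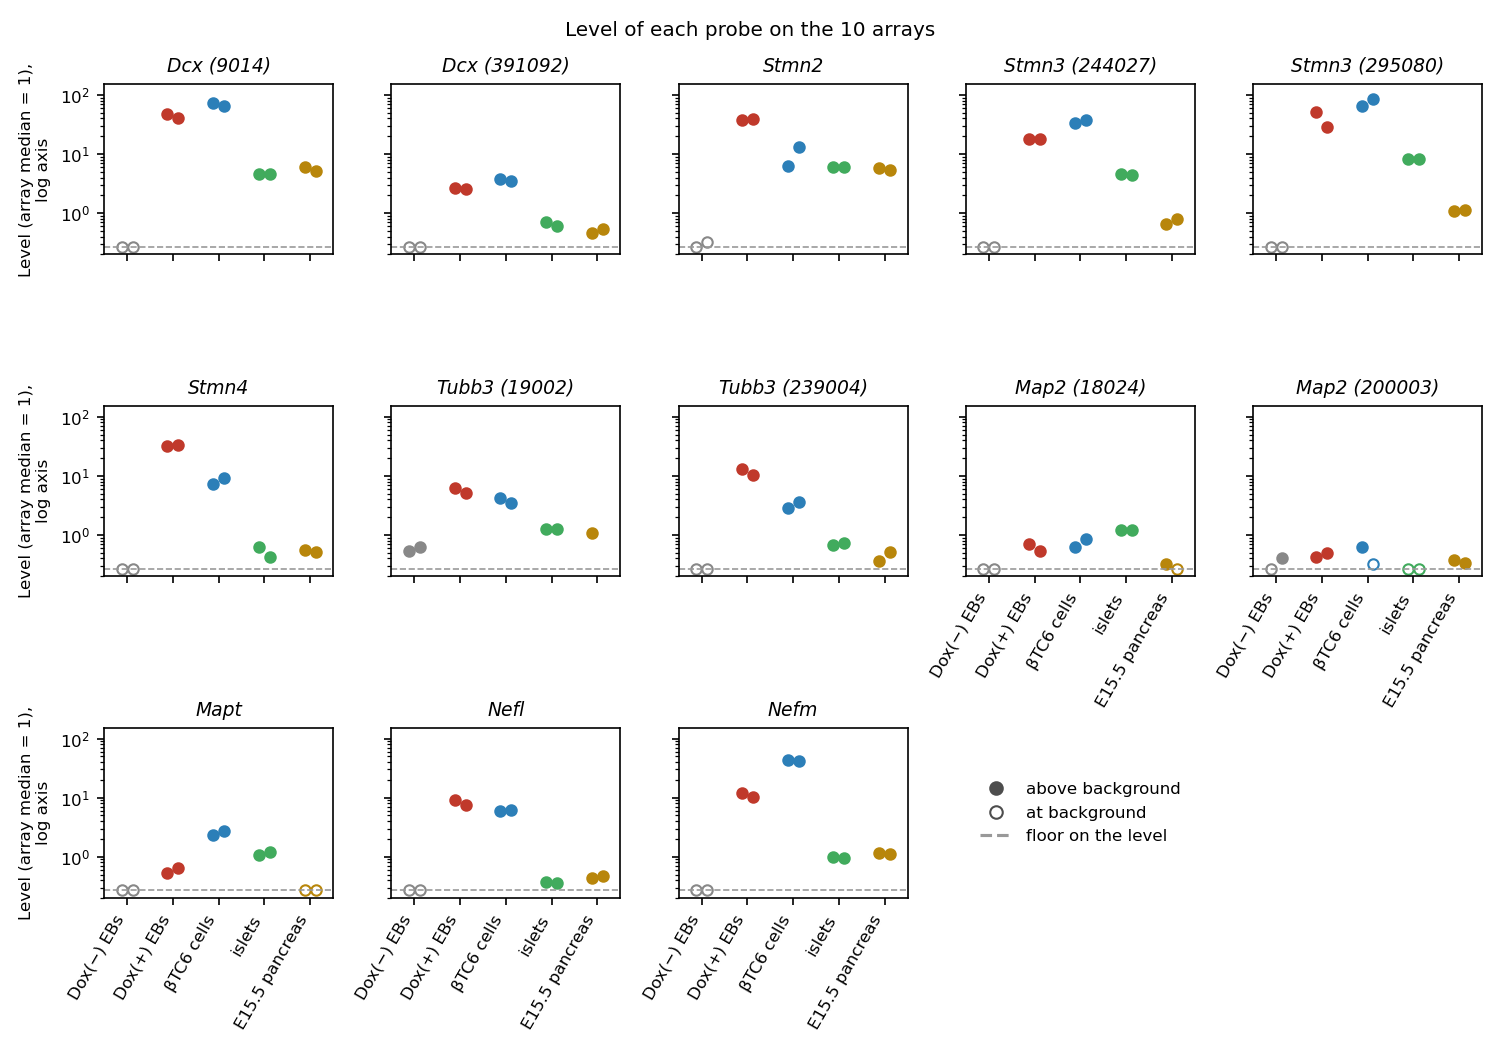
Level of each of the 13 probes (log axis, array median = 1) on the 2 arrays of each of 5 groups. Filled points were above background, open points were at background, the dashed line is the floor of 0.27, and the second pancreas array is missing for Tubb3 probe 19002, where the spot was contaminated. Dox(−) EBs lie at the floor for most probes, and Dox(+) EBs rank first or next after βTC6 cells for Dcx, the stathmins, Tubb3, Nefl and Nefm.

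Dcx, a microtubule protein of migrating young neurons, was high in Dox(+) EBs and in βTC6 cells. At probe 9014 both Dox(−) arrays were at background and under the floor (0.111 and 0.123), and the Dox(+) arrays read 48.2 and 39.9. βTC6 cells read 72.5 and 64.8, islets read 4.62 and 4.50, and E15.5 pancreas read 5.95 and 5.08. Dox(+) EBs and βTC6 cells thus stood apart from the other 3 groups, with no overlap. The rise with Dox was at least 160.2-fold (log2 difference 7.34, SE 0.12, limma adjusted p = 4.62e-11), and Dox(+) EBs were 9.63-fold above islets and 7.99-fold above pancreas. Against βTC6 cells they read 1.56-fold lower on the deposited scale (log2 difference -0.64, limma adjusted p = 0.000728), but this direction turned to 0.29 after quantile normalization and to 0.28 after normexp with quantile normalization.

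The other Dcx probe, 391092, gave smaller values and the same leading groups. It was at background on both Dox(−) arrays and read 2.64 and 2.51 in Dox(+) EBs, against 3.71 and 3.45 in βTC6 cells. Islets read 0.715 and 0.602, and pancreas read 0.456 and 0.528. Its rise was at least 9.40-fold (limma adjusted p = 3.69e-08), and Dox(+) EBs were 1.39-fold below βTC6 cells (limma adjusted p = 0.0142, but 0.0740 without Dox(+) replicate 2 and 0.0603 without βTC6 replicate 1). Both probes put islets and pancreas close together but in opposite orders: probe 391092 was 1.34-fold higher in islets (limma adjusted p = 0.0250), while probe 9014 was 1.21-fold higher in pancreas without passing the test (limma adjusted p = 0.0684). The call at probe 391092 was lost without islet replicate 1 or without pancreas replicate 1 (limma adjusted p = 0.154 for each) and with a floor of 0.1 (limma adjusted p = 0.0991). Probe 9014 passed without pancreas replicate 2 (limma adjusted p = 0.0453) and with the replicate number as a block (limma adjusted p = 0.0407).

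The stathmins all rose with Dox, and they differed in where else they were found. Stmn2, also called SCG10, is a stathmin of growing axons. Its Dox(−) arrays were at background (0.130 and 0.32), and its Dox(+) arrays read 37.1 and 38.8. In βTC6 cells the values were 6.38 and 13.0, in islets 6.13 and 5.98, and in pancreas 5.79 and 5.44. Dox(+) EBs lay above every other array, and both βTC6 arrays lay above the islet and pancreas arrays, 1 of them only narrowly. Stmn2 rose at least 127-fold (log2 difference 7.01, SE 0.25, limma adjusted p = 8.06e-09) and was 4.17-fold higher than in βTC6 cells (limma adjusted p = 3.32e-05), 6.27-fold higher than in islets and 6.76-fold higher than in pancreas. The neighbours βTC6 cells and islets, at 1.50-fold, did not pass the test (limma adjusted p = 0.0591), nor did islets and pancreas (limma adjusted p = 0.739). βTC6 cells passed as 1.62-fold above pancreas (limma adjusted p = 0.0300), but this call was lost under most alternatives. Quantile normalization gave a log2 difference of 0.38 in place of 0.70 (limma adjusted p = 0.178). Without βTC6 replicate 2, βTC6 cells exceeded pancreas by a log2 difference of only 0.19. Without βTC6 replicate 1 they passed against islets as well (limma adjusted p = 2.84e-05).

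Stmn3, a stathmin of the nervous system also called SCLIP, followed Dcx more than it followed Stmn2. At probe 295080 the Dox(−) arrays were at background, the Dox(+) arrays read 50.8 and 28.4, and βTC6 cells read 64.3 and 84.9. Islets read 8.10 and 8.13, and pancreas read 1.08 and 1.14. Probe 244027 read 18.0 on both Dox(+) arrays, 32.9 and 38.2 in βTC6 cells, 0.654 and 0.796 in pancreas and 4.53 and 4.48 in islets, and was at background in Dox(−) EBs. Both probes gave the same order of groups, βTC6 cells, Dox(+) EBs, islets, pancreas and Dox(−) EBs, in which every pair of neighbours differed. The rises with Dox were at least 139-fold and at least 65.6-fold (limma adjusted p = 3.09e-09 and 1.38e-10). Islets exceeded pancreas 7.31-fold and 6.25-fold, the widest measured gaps between these 2 tissues among the 13 probes. Dox(+) EBs were 1.95-fold and 1.97-fold below βTC6 cells on the deposited scale (limma adjusted p = 0.00319 and 3.77e-05), but after quantile normalization the log2 difference was only -0.06 at probe 295080, with no call, and -0.46 at probe 244027.

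The promoter of Stmn3 is shown because it was the only one among the member promoters found in the RefSeq table (Dcx, Stmn3, Tubb3 and Map2) to hold an E-box, CANNTG, the kind of motif that basic helix-loop-helix factors bind. The 250 bases before the start of Stmn3 (GRCm38.p6, minus strand, chr2:181314501-181314750) are given 5′ to 3′ with the E-box in capitals.
Stmn3: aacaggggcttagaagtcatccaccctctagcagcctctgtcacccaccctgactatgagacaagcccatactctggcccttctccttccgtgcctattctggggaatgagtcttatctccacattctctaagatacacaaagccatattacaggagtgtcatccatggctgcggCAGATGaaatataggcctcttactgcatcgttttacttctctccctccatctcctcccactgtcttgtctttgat
The match begins at -75 from the start site and reads CAGATG. On either strand the general form CANNTG is in 66.2% of all 32851 promoter windows of this length, and the narrower CAGATG is in 14.4%. Parts of the element bound by REST, a repressor of neuronal genes, were searched as well: TTCAGCACC was in 0.301% of windows and in no member window, and GGACAG was in 18.7% of windows and, as CTGTCC, in that of Map2 at -219. The data hold no measure of binding at these sites.

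Stmn4, the stathmin RB3 of the nervous system, showed the clearest separation of Dox(+) EBs from the primary tissues. Both Dox(−) arrays were at background, Dox(+) EBs read 32.5 and 33.6, and βTC6 cells read 7.37 and 9.05. Islets read only 0.629 and 0.419, and pancreas 0.566 and 0.509. The rise with Dox was at least 121-fold (log2 difference 6.94, SE 0.18, limma adjusted p = 8.99e-10), and Dox(+) EBs were 4.05-fold above βTC6 cells, 64.4-fold above islets and 61.6-fold above pancreas. These last 2 were the largest measured folds of Dox(+) EBs over islets and over pancreas among the 13 probes. Islets and pancreas did not pass the test against each other (limma adjusted p = 0.799).

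Tubb3, the β-tubulin isotype that marks neurons, was higher in Dox(+) EBs than in any other group at both probes. Probe 19002 was the only one of the 13 above background on both Dox(−) arrays, at 0.536 and 0.634, and it read 6.14 and 5.14 in Dox(+) EBs and 4.24 and 3.53 in βTC6 cells. Islets read 1.25 and 1.28, and pancreas 1.06 on the 1 array that measured it, so its pancreas tests rest on that array and on a spread taken from the other groups. Probe 239004 was at background in Dox(−) EBs and read 13.2 and 10.2 in Dox(+) EBs, against 2.85 and 3.66 in βTC6 cells, 0.365 and 0.505 in pancreas and 0.682 and 0.726 in islets. The groups did not overlap between Dox(+) EBs and βTC6 cells at either probe.

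Tubb3 rose 9.65-fold at probe 19002 and at least 42.3-fold at probe 239004 (limma adjusted p = 1.47e-07 and 7.99e-09). The excess over βTC6 cells was 3.59-fold at probe 239004 (limma adjusted p = 1.06e-05) and 1.45-fold at probe 19002 (limma adjusted p = 0.0106). The smaller of these did not pass without Dox(+) replicate 1 (limma adjusted p = 0.0927) or without βTC6 replicate 2 (limma adjusted p = 0.0609). Islets exceeded pancreas 1.64-fold at probe 239004 (limma adjusted p = 0.00760, but 0.0833 without pancreas replicate 1), and probe 19002 gave 1.19-fold without passing (limma adjusted p = 0.255). The promoter of Tubb3 is shown because Tubb3 was among the genes highest in Dox(+) EBs, and it held none of the motifs searched. The 250 bases before its start (GRCm38.p6, plus strand, chr8:123411303-123411552) contain no capitals for that reason.
Tubb3: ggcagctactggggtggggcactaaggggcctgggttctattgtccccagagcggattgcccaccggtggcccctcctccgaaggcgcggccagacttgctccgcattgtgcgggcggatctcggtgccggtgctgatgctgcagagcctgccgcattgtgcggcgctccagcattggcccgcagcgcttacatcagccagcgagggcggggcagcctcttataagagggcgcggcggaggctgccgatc

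Map2 and Mapt, microtubule-associated proteins of dendrites and of axons in mature neurons, showed the smallest differences with Dox on the floored levels. At Map2 probe 18024 and at Mapt the rises are lower bounds, so they cannot be ranked with those of other genes. At Map2 probe 18024 the Dox(−) arrays were at background, and the Dox(+) arrays read 0.702 and 0.525. βTC6 cells read 0.625 and 0.839, islets 1.22 on both arrays, and pancreas 0.317 with its second array at background. The rise with Dox was at least 2.22-fold (limma adjusted p = 0.000782). Islets, not EBs, held the highest level, 2.01-fold above Dox(+) EBs (limma adjusted p = 0.000997) and 1.69-fold above βTC6 cells (limma adjusted p = 0.00617). Dox(+) EBs and βTC6 cells overlapped and did not pass the test (limma adjusted p = 0.294).

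The second Map2 probe, 200003, was dim and gave another picture. It read 0.124 (at background) and 0.410 in Dox(−) EBs, 0.422 and 0.501 in Dox(+) EBs, 0.615 and 0.325 (at background) in βTC6 cells, and 0.381 and 0.340 in pancreas, and both islet arrays were at background. The Dox difference of 0.47 on the log2 scale did not pass (SE 0.28, limma adjusted p = 0.220). Dox(+) EBs passed as at least 1.70-fold above islets (limma adjusted p = 0.0336), against the order at probe 18024. That call was lost, with adjusted p from 0.0523 to 0.171, without any 1 of the Dox(+), islet or pancreas arrays, and its adjusted p was 0.128 with no filter on background.

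Mapt was at background in Dox(−) EBs and in E15.5 pancreas, and read 0.529 and 0.652 in Dox(+) EBs. βTC6 cells read 2.36 and 2.72, and islets 1.06 and 1.18. In Dox(+) EBs Mapt was 4.31-fold below βTC6 cells (limma adjusted p = 9.29e-07) and 1.90-fold below islets (limma adjusted p = 0.000424). It rose at least 2.14-fold with Dox (limma adjusted p = 0.000253) and was at least 2.16-fold above pancreas. The call against islets was lost with a floor of 0.1 (limma adjusted p = 0.0585). All Dox(+) levels of Map2 and Mapt lay under the median probe of the array, and with a floor of 1 their differences from Dox(−) EBs could not be seen.

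The neurofilament genes Nefl and Nefm, which lie next to each other on chromosome 14, both rose with Dox and parted in βTC6 cells. Nefl was at background in Dox(−) EBs and read 9.14 and 7.37 in Dox(+) EBs, against 6.06 and 6.08 in βTC6 cells, 0.444 and 0.468 in pancreas and 0.376 and 0.353 in islets. Nefm was also at background in Dox(−) EBs and read 12.2 and 10.3 in Dox(+) EBs, against 43.9 and 42.5 in βTC6 cells, 1.14 and 1.09 in pancreas and 0.978 and 0.970 in islets. Both were well above islets and pancreas in Dox(+) EBs and in βTC6 cells, with no overlap. Nefl rose at least 30.0-fold (log2 difference 4.93, SE 0.14) and Nefm at least 41-fold (log2 difference 5.38, SE 0.11), with limma adjusted p = 1.27e-09 and 1.79e-10.

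Against βTC6 cells Nefm was 3.84-fold lower in Dox(+) EBs (limma adjusted p = 1.01e-07), and lower under both other scalings. Nefl was 1.35-fold higher there (limma adjusted p = 0.0164), a call lost without Dox(+) replicate 1 (limma adjusted p = 0.149). Over islets and pancreas the excess was 22.5-fold and 18.0-fold for Nefl and 11.5-fold and 10.1-fold for Nefm. For neither gene did islets and pancreas pass the test against each other (limma adjusted p = 0.0577 for Nefl and 0.149 for Nefm). The third neurofilament subunit, Nefh, moved little with Dox: its single measured Dox(−) array was at background, Dox(+) EBs read 0.347 and 0.281, and the limma adjusted p was 0.454.

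**Figure D2:**
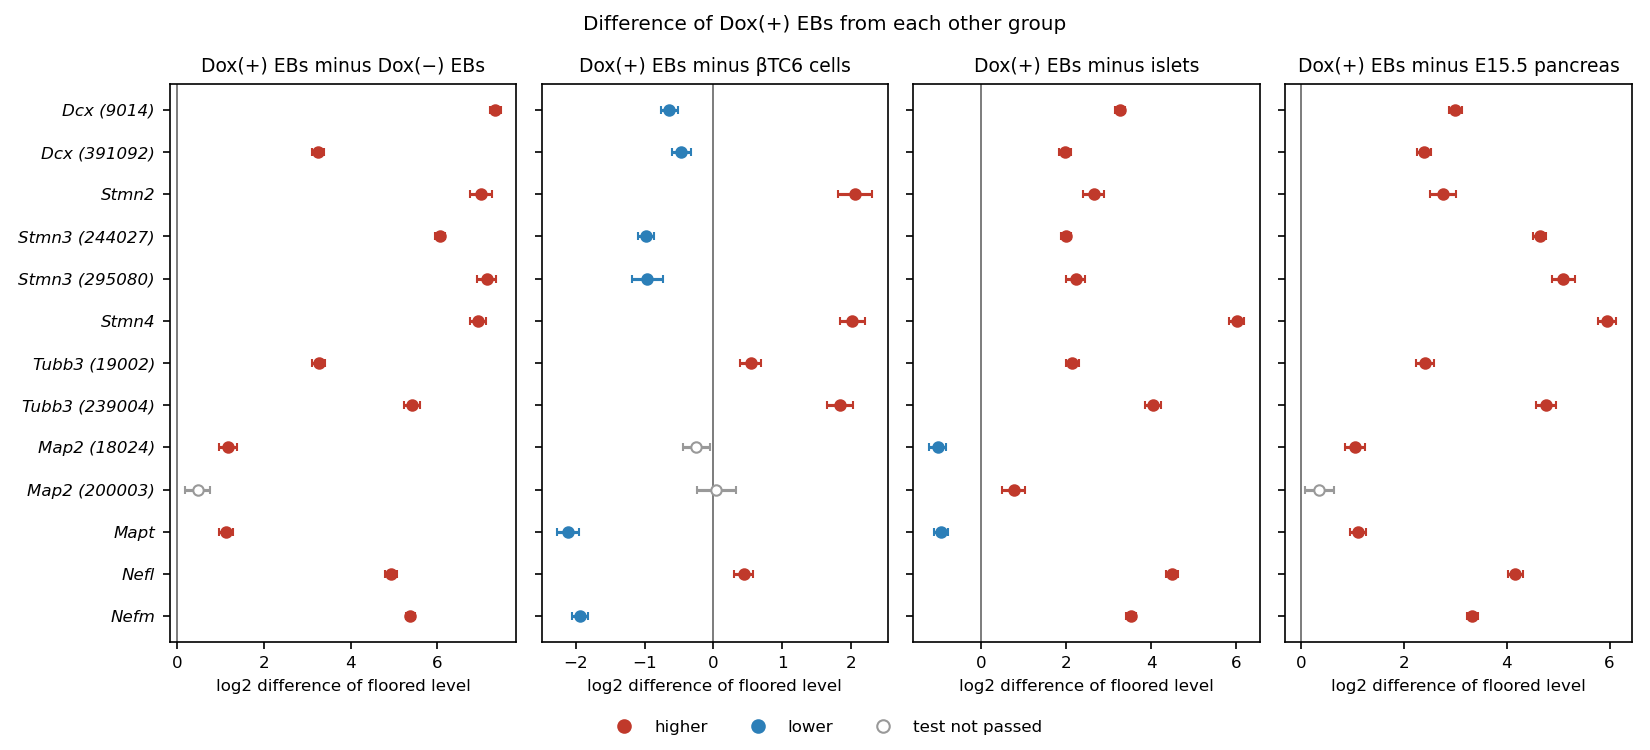
log2 difference of the floored level (point) with its standard error (bar) for 13 probes, in 1 panel for each group that was subtracted from Dox(+) EBs. Red points passed the limma test upwards, blue points downwards, and open points did not pass. Differences from Dox(−) EBs and pancreas lie on 1 side of 0, and those from βTC6 cells are split, with 5 probes higher and 6 lower.

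By the median over the 13 probes, Dox(+) EBs lay nearest to βTC6 cells among the references. Against βTC6 cells 5 probes were higher (Stmn2, Stmn4, both Tubb3 probes and Nefl), 6 were lower (both probes of Dcx and of Stmn3, Mapt and Nefm) and 2 did not pass (Map2). Over the whole array 25.5% of the tested probes passed upwards and 37.5% downwards, so the lower share of the members was near the background. The median difference was -0.25 over the 13 probes and -0.11 over all probes, and quantile normalization moved the median of all probes to 0.00. Without Dox(+) replicate 1 the higher count was 3, with Tubb3 probe 19002 and Nefl lost, and with a 2-fold minimum it was 3 higher and 2 lower. Against islets 11 probes were higher and 2, Map2 probe 18024 and Mapt, were lower, beside 36.4% and 31.6% of all probes, with a median of 2.23. Against E15.5 pancreas 12 were higher and 0 lower (limma), beside 33.0% and 26.9% of all probes, with a median of 3.00, and no probe was lower at an unadjusted p under 0.05. All 4 comparisons share the Dox(+) arrays, so they are not separate evidence. The 5 probes that exceeded βTC6 cells also exceeded the other 3 groups, but the share of all probes that did so is not given here.

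The references differed among themselves as well. βTC6 cells exceeded islets at 11 probes and fell below them at 1, Map2 probe 18024, where 39.1% of all probes were called higher and 27.0% lower. Of the 11, Map2 probe 200003 passed narrowly (limma adjusted p = 0.0432) and lost its call under most alternatives, with a log2 difference of 0.27 in place of 0.73 without βTC6 replicate 1 (limma adjusted p = 0.367) and adjusted p of 0.134 and 0.135 without either islet array. They exceeded pancreas at 12 probes and fell below it at 0 (41.8% and 23.8% of all probes). The 12 include the call of Stmn2, which was lost under most alternatives. Islets exceeded pancreas at 6 probes and fell below it at 0 (32.4% and 32.5% of all probes): both of Stmn3, 1 each of Dcx, Tubb3 and Map2, and Mapt. At an unadjusted p under 0.05, 2 probes were lower in islets than in pancreas (Dcx probe 9014 and Nefl). Dox(−) EBs fell below βTC6 cells at 12 probes, below islets at 12 and below pancreas at 10, beside 37.9%, 32.3% and 24.8% of all probes. The call of Nefl against islets was lost without islet replicate 1 (limma adjusted p = 0.0691), and that of Tubb3 probe 239004 against pancreas without Dox(−) replicate 1 or pancreas replicate 2 (limma adjusted p = 0.0502 and 0.124). No member probe was higher in Dox(−) EBs than in a reference by limma, beside 28.7%, 37.6% and 33.6% of all probes, and none had an unadjusted p under 0.05 in that direction.

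Those genes for other tubulins and filaments that had a probe did not rise as a group. Of 18 tubulin isotypes listed, 13 had a probe of their own. Tuba1a, Tuba3b, Tubb2a, Tubb2b and Tubb5 had none, so nothing is known here of their change with Dox. Of 13 tested tubulin isotypes 4 rose with Dox, 5 fell and 4 did not pass, and the median difference was -0.19. Tubg2, a γ-tubulin of microtubule nucleation, rose 3.47-fold (limma adjusted p = 5.46e-07). Tuba3a, an α-tubulin, rose at least 3.00-fold, to 0.724 and 0.937, and was at background on all 8 arrays of the other groups. Tuba1b, a widely expressed α-tubulin that was saturated on both Dox(−) arrays, fell at least 1.61-fold, and Tubb6 fell 1.88-fold (limma adjusted p = 0.000107 and 0.000256). The summed level of the 13 isotypes was 592 to 599 in Dox(−) EBs and 402 to 435 in Dox(+) EBs.

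Among 30 tested microtubule-binding and motor proteins 15 rose, 2 fell and 13 did not pass, with a median of 0.46. Dclk1, a kinase with doublecortin domains, rose at least 65.5-fold, from background to 18.9 and 17.1, and read 14.6 and 13.6 in βTC6 cells, 0.871 and 0.855 in pancreas and 3.50 and 3.19 in islets. Map6, which protects microtubules from cold, rose at least 11.1-fold, Klc1, a light chain of kinesin, 8.52-fold, and Fez1, an adaptor of kinesin, 4.60-fold. With Dclk1, these 4 genes had limma adjusted p from 7.14e-11 to 5.68e-08. Fez1 was highest in islets (112 and 123), then βTC6 cells (39.9 and 44.9), then Dox(+) EBs (17.8 and 18.0). Map6 read 2.95 and 3.16 with Dox, and both βTC6 cells (5.44 and 7.57) and islets (4.22 and 3.64) exceeded it. Klc1 overlapped between Dox(+) EBs (96.2 and 85.5) and βTC6 cells (88.4 and 78.6), with islets at 31.7 and 29.2. Pancreas read lowest among the references for Map6, Klc1 and Fez1. Stmn1, the widely expressed stathmin, did not pass (log2 difference 0.18, limma adjusted p = 0.129).

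Intermediate filaments other than Nefl and Nefm, the third neurofilament subunit Nefh among them, split by kind. Of 16 tested 2 rose, 7 fell and 7 did not pass, with a median of -0.22. Those that rose were the neuronal proteins Prph (peripherin, 6.82-fold, limma adjusted p = 9.96e-06) and Ina (α-internexin, 5.87-fold, limma adjusted p = 0.000573). Neither was particular to Dox(+) EBs. Prph levels with Dox were 7.98 and 7.58. Islets exceeded them (10.1 and 9.20), while pancreas gave 6.30 and 6.31 and βTC6 cells 2.16 and 4.56. Ina reached 16.2 and 14.5 with Dox, within reach of βTC6 cells (15.4 and 18.2). The islet arrays differed widely for Ina (13.9 and 48.3), and pancreas gave 2.33 and 2.12. Epithelial keratins fell, Krt19 8.26-fold, from 81.9 and 80.5 to 9.31 and 10.4, and Krt20 6.10-fold, and so did the muscle filament Des, 3.11-fold (limma adjusted p = 1.04e-08, 2.67e-06 and 0.000106). Ina was named after its values were seen. Under both other scalings the medians of tubulin isotypes and intermediate filaments stayed below 0, and no called gene of any list changed direction with Dox.

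Of 23 tested growth cone and axon growth proteins 14 rose, 2 fell and 7 did not pass, with a median of 0.97. Sncg, γ-synuclein, rose at least 33.0-fold, from background to 8.24 and 9.94. Islets read higher still for Sncg (14.8 and 12.8), pancreas lower (1.58 and 1.69), and βTC6 cells were at background. L1cam, an axonal adhesion molecule, rose 10.3-fold to 5.79 and 5.57, above the 0.964 to 1.57 of the 3 references. Cdk5r2, an activator of the kinase Cdk5, rose 6.87-fold, and Uchl1, a neuronal ubiquitin hydrolase, 5.35-fold. The limma adjusted p ran from 7.90e-10 to 9.56e-09 for these 4 genes. βTC6 cells (58.5 and 56.1) and islets (33.5 and 32.5) exceeded the Dox(+) level of Cdk5r2 (10.9 and 10.4). Pancreas stayed under it, at 3.34 and 2.95. Among the references only βTC6 cells (184 and 192) exceeded the Uchl1 level with Dox (96.1 and 85.7).

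Markers of neurons and of endocrine cells moved with the cytoskeletal genes. Of 14 tested neuronal markers 12 rose, 0 fell and 2 did not pass (median 2.55), and their summed level was 14.7 to 15.7 in Dox(−) EBs, with 7 of the 14 at background on both arrays (4 of the 14 in islets), 161 to 178 in Dox(+) EBs, 349 to 391 in βTC6 cells, 195 to 212 in islets and 25.7 to 26.7 in pancreas. Syp, a synaptic vesicle protein that endocrine cells also hold, rose 78.6-fold, Gad2, an enzyme of GABA synthesis, at least 40.5-fold, and Elavl4, a neuronal RNA-binding protein, at least 33.2-fold. Slc17a6, a vesicular glutamate transporter of neurons named here after its values were seen, read 6.46 and 5.55 in Dox(+) EBs and was at background on all 8 other arrays. Elavl3, also named after its values were seen, read 9.78 and 8.86 in Dox(+) EBs against 1.13 and 2.55 in βTC6 cells, and 0.355 to 0.641 in islets and pancreas. The neuronal list as a whole was split against βTC6 cells, with 6 of the 14 genes higher in Dox(+) EBs, 7 lower and a median of -0.41. Against islets 7 were higher and 3 lower. Of 12 tested endocrine markers all 12 rose (median 6.06), with a summed level of 8.17 to 8.22 in Dox(−) EBs and 545 to 626 in Dox(+) EBs. All the endocrine markers are in the gene list that the study drew from these same arrays, so their rise was known in advance. It is not independent evidence. The part of neurons and endocrine cells in the result was not tested.

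Progenitor and glial markers moved less. Of 5 tested neural progenitor markers 2 rose, 1 fell and 2 did not pass. Fabp7, also a marker of radial glia, rose 8.37-fold, Sox2 rose 1.35-fold and Sox1 fell 1.44-fold (limma adjusted p = 1.49e-07, 0.0285 and 0.00490). Of 6 tested glial markers 2 rose, 1 fell and 3 did not pass, and their summed level was 10.7 to 11.7 in Dox(−) and 11.8 to 12.1 in Dox(+) EBs. Of 7 tested β cell markers 4 rose and 3 did not pass, and their summed level of 7.58 to 8.48 in Dox(+) EBs lay far below the 298 to 327 of βTC6 cells. Of 5 tested acinar markers 3 rose. Of 2 tested blood markers 1 fell. Of 9 tested mesenchymal markers 7 fell and 1 rose, with summed levels of 778 to 834 in Dox(−) and 332 to 340.4 in Dox(+) EBs.

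**Figure D3:**
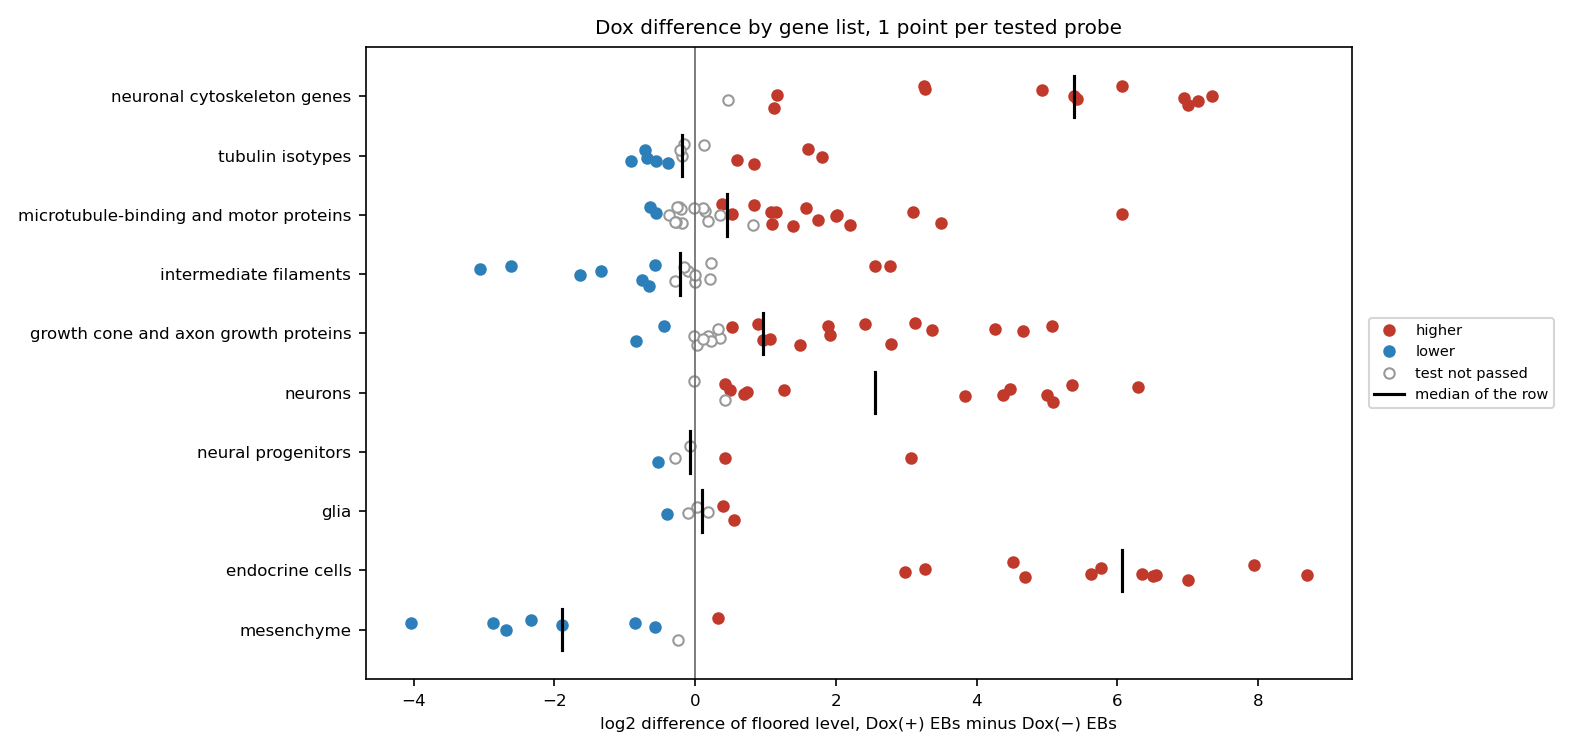
log2 difference of the floored level, Dox(+) EBs minus Dox(−) EBs, with 1 point per tested probe. The top row holds the 13 probes of the neuronal cytoskeleton genes, each other row a gene list with 1 probe per gene, points are coloured by the limma call, and black bars are medians. The top row has a median of 5.38, between the neuronal list at 2.55 and the endocrine list at 6.06. Those tubulin isotypes and intermediate filaments that had a probe have medians of -0.19 and -0.22. The endocrine genes are all in a list that the study drew from these same arrays.

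Among the members, likeness of pattern was measured as the root mean square difference of log2 levels over the 10 arrays, after each probe (the brightest of each gene) was centred on its own mean. The most alike were Stmn4 and Nefl (0.73), Map2 and Mapt (0.77), Dcx and Nefm (0.93) and Nefl and Nefm (0.97), and the least alike were Stmn4 and Map2 (2.54). Each gene outside the list was then ranked by the same measure. Nearest to Dcx was Cartpt (0.46), which encodes the CART peptide and read 33.5 and 34.2 in Dox(+) EBs, against 57.1 and 51.2 in βTC6 cells, 6.84 and 6.54 in pancreas and 8.51 and 8.05 in islets, with both Dox(−) arrays at background. Nearest to Stmn2 was Klhl32 (0.63), to Stmn3 Caly (0.67), to Stmn4 Tagln3 (0.69), to Nefl Pld5 (0.29) and to Nefm Astn1 (0.52). Tubb3, over the 9 arrays that measured it, came closest to Klc1 (0.22). Map2 was nearest to Smap2 (0.19) and Mapt to 4930413G21Rik (0.16). These distances describe 10 arrays in 5 groups, and they run smaller for genes with a narrow range such as Map2 and Mapt.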

How the data were processed

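Total RNA of 10 samples in 5 groups of 2 was hybridised to 1-colour CodeLink arrays. The values used are intensity values as the authors deposited them: CodeLink Expression Analysis 4.1.0.29054 took the mean of each spot less the median of its surroundings, and scaled each array to a median of 1 over 34967 discovery probes. The genome build behind the probes is not given in the sources used here. The study's later steps in GeneSpring and its removal of misannotated probes were not repeated.

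Probes were named through the deposited annotation and RefSeq symbols (GRCm38.p6, for names only): 21615 probes have 1 symbol, 681 several and 12671 none. Spots marked masked, contaminated or irregular were left out. Levels were floored at 0.27, converted to log2 and fitted with limma 3.58.1 in R 4.3.3 (1 mean per group over all 10 arrays, no block, eBayes with trend and robust, 5 residual degrees of freedom). Probes entered the fit when 1 group or more had both its arrays above background, which left 28259. Benjamini-Hochberg adjustment ran over the probes tested in each contrast, with a threshold of 0.05. Folds carry "at least" where both arrays of the dimmer group were at background, or both of the brighter group saturated. The fit was also run on simulated data, with no result given here. A gene of a list was read by its brightest probe. Every member probe is named, with up to 4 genes of each list by smallest adjusted p for Dox(+) against Dox(−) EBs and the nearest genes by pattern. Promoters (GRCm38.p6) came from a RefSeq table that holds 4 of the 10 genes, and protein sequences were not used here. The members, lists and tests were chosen with earlier results of these data known.

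The settings varied were the scaling (quantile normalization, alone or after normexp with an offset of 50), the floor (0.1 or 1), other filters on dim probes, contaminated spots kept, eBayes without trend and robust weights, a replicate block, only the arrays of both groups compared, a 2-fold minimum, and each array left out in turn. Tables and plots used pandas 2.3.3 and matplotlib 3.10.9 under Python 3.11.15.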

Additional observations from a re-analysis of the deposited data

How the results depend on the processing

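The counts against Dox(−) EBs stayed at 12 higher and 0 lower under the alternatives, except with a floor of 1, which gave 10 (Map2 probe 18024 and Mapt lost). Against E15.5 pancreas they were 10 higher with that floor and otherwise 11 to 12. Against βTC6 cells the count of higher probes was 3 instead of 5 with a 2-fold minimum and when only the arrays of both groups were fitted, and the count of lower probes was 2 instead of 6 with a 2-fold minimum and 4 under quantile normalization, normexp with quantile normalization and a floor of 0.1. Against islets 1 probe instead of 2 was lower with a floor of 0.1, a floor of 1 or a 2-fold minimum. Leaving out each array in turn gave 12 to 12 higher probes against Dox(−) EBs, 3 to 5 higher and 5 to 6 lower against βTC6 cells, 10 to 11 higher and 2 to 2 lower against islets, and 11 to 12 higher against pancreas, where an array left alone in its group was assumed to vary like the others. Dcx probe 9014 changed direction against βTC6 cells, from -0.64 to 0.29 with quantile normalization (limma adjusted p = 0.0636). With normexp and quantile normalization it was 0.28 (limma adjusted p = 0.0421). There it passed as higher, whereas on the deposited scale it passed as lower. The cause of the change was not tested. For the gene lists, read out under the scalings after the values were seen, microtubule-binding and motor proteins gave 16 rising and 5 falling genes instead of 15 and 2 under both, and tubulin isotypes 5 rising and 4 falling with quantile normalization or 5 and 3 with normexp and quantile normalization instead of 4 and 5. Over all 10 pairs of groups, 103 of the alternative values for single probes lost their call, 12 gained one, 2 changed direction and 2401 did neither. With probes above background on all 10 arrays no member remained to be tested. The replicate block gave 12 and 0, 5 and 6, 11 and 2, and 12 and 0 probes higher and lower against the 4 groups, and changed none of these counts; among the references it ended the call of Map2 probe 200003 between βTC6 cells and islets (limma adjusted p = 0.0599) and gave 1 to Dcx probe 9014 between islets and pancreas (limma adjusted p = 0.0407). Deviations of arrays with the same number correlated at -0.0687 to 0.0628 over 10 pairs of groups, so the numbers were not taken to pair the arrays. A net signal of 1.66 to 2.63 times the background limits what can be seen of dim probes such as those of Map2 and Mapt.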
